A study of Mus musculus with 12 samples.

Results

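Glycolysis and hypoxia response genes were followed across 12 libraries of mouse CD4 T cells. The set was a list of 35 genes chosen by name, with earlier results of these data known. All 35 were among the 18601 genes of the deposited table. By role the set held 4 transporters of glucose and lactate, 11 genes of the first steps of glycolysis and 6 of the later steps. It also held 3 that act on pyruvate and 11 known targets or sensors of the hypoxia response. Values were taken from CD3-positive cells, meaning cells with at least 3 unique molecular identifiers (UMIs, each 1 captured transcript) over Cd3d, Cd3e and Cd3g together. These were 29623 of 32763 cells, or 90.4%.

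The recovered cells were the progeny of Th1 cells, helper T cells that make interferon gamma, transferred into recipient mice. Control Th1 cells carried Il23r wt/eGFP, with 1 reporter allele at the interleukin-23 receptor gene, and knockout (KO) cells carried Il23r eGFP/eGFP, so both genotypes carried the reporter. Spleen and colon lamina propria were profiled with 2 libraries per genotype (replicates 1 and 2). The lamina propria of the small intestine and the epithelium of the colon had 1 library per genotype, both from replicate 2. The labels name the replicates without saying whether each came from its own animal, so p-values measure the spread between these samples, which may be technical. The sources used here do not give the recipients' age or strain, nor whether they kept T cells of their own.

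Spleens were pressed through a filter with a plunger and their red cells lysed, while gut T cells were released with a dissociation kit, so tissue and isolation method cannot be told apart. The libraries held 764 to 3661 CD3-positive cells and 1902990 to 13248318 of their UMIs, with medians of 2273 to 5690 UMIs per cell. Of those UMIs, 0.397% to 0.652% came from the 35 genes. Cd4 measured 199 to 386 CPM (UMIs of the gene per 1000000 UMIs of the library's CD3-positive cells) in every library and Cd8a at most 18.3 CPM. The CD3 gate kept 50.6% of cells in the small intestinal KO library and 77.9% to 98.4% elsewhere. Summed markers of macrophages (5.45 to 154 CPM), B cells (1.28 to 4.17 CPM) and neutrophils (0.162 to 13.5 CPM) were at most 154 CPM in every library, and those of innate lymphoid (ILC) and NK cells summed to 111 to 433 CPM, with the highest in spleen KO 1 against 215 CPM in its control. Erythroid markers reached 1509 CPM in 1 colon lamina propria library, and epithelial markers reached 1488 CPM in the epithelial KO library against 46.2 CPM in the epithelial control. Barcodes shared between libraries numbered 677, covering 1363 cells (4.16%). Il23r gave 0.314 to 4.20 CPM and 3 to 33 UMIs per library. Where its 3′ tags fall relative to the altered part of the gene was not examined, so these counts check no label.

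Glycolysis turns glucose into pyruvate, which T cells either reduce to lactate for export or pass to mitochondria. Activated effector T cells are known for a high rate of glycolysis even with oxygen present. When oxygen is scarce, prolyl hydroxylases stop marking hypoxia-inducible factor (HIF) for destruction, and HIF then raises glucose transporters, glycolytic enzymes and a group of stress genes. The colon is known for low oxygen near its epithelial surface, and HIF-1 is also induced in T cells by antigen receptor and cytokine signals.

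HIF binds DNA at a short core, ACGTG or GCGTG. The promoters of 5 of the members called higher in colon lamina propria below are shown, with every core in capitals on either strand. Each window is the 250 bases before a RefSeq transcript start in GRCm38.p6, the assembly of the mm10 build that the submitters' notes name. The ACGTG core is also part of CACGTG, the E-box bound by MYC and its partners, so a match does not tell the factors apart. The windows are chr6:82774455-82774704 (minus strand) for Hk2, chr19:53329163-53329412 (plus strand) for the second of 3 Mxi1 starts, chr12:54203875-54204124 (minus strand) for Egln3, chr14:45318573-45318822 (minus strand) for Ero1l and chr4:119108495-119108744 (plus strand) for Slc2a1. Each is printed 5′ to 3′ on the strand of its gene.
Hk2: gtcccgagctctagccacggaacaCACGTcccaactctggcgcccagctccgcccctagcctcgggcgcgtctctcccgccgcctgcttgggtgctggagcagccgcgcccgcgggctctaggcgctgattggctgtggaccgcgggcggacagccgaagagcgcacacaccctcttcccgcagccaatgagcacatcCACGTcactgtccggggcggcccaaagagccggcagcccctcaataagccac
Mxi1: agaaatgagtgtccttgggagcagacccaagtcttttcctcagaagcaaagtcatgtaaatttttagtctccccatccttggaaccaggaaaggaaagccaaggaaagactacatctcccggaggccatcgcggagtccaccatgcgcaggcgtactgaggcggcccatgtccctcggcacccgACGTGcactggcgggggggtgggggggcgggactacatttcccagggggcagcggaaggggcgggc
Egln3: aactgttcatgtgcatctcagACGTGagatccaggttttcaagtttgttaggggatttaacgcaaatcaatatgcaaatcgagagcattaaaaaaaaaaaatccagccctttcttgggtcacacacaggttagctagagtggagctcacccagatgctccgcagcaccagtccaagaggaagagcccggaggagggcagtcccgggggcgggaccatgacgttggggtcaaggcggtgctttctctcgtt
Ero1l: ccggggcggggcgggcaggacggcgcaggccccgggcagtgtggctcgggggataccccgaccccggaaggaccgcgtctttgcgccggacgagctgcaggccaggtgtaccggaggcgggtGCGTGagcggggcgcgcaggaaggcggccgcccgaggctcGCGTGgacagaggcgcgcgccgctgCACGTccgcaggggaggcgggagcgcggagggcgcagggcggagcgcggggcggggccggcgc
Slc2a1: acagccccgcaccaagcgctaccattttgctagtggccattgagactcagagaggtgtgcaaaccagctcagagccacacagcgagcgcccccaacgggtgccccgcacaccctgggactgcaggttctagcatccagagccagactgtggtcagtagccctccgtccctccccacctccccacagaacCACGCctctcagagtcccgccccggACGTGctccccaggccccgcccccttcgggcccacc
Gene models (GENCODE, GRCm38) place Hk2 at chr6:82725025-82774454, Mxi1 at chr19:53310518-53375810, Egln3 at chr12:54178981-54203860, Ero1l at chr14:45283087-45318771 and Slc2a1 at chr4:119108711-119137983. Hk2 held 2 cores, 226 and 52 bases before the start, and Ero1l held 3, at 128, 88 and 63 bases. Egln3 held 1 core, 229 bases before its start, and the Mxi1 window shown held 1 at 66 bases. Mxi1 held a core in 2 of its 3 windows, as did Aldoa, which was also called and is not shown. Slc2a1 held 2 cores, 61 and 36 bases before its start.

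RefSeq promoters were matched for 32 of the 35 members; Slc2a3, Bnip3l and Ndrg1 had no entry. A core stood in at least 1 window of 30 of the 32 members (93.8%), all but Gpi1 and Tpi1. The same was true of 62.7% of the 8269 genes that were matched and tested between colon lamina propria and spleen, and of 41.5% of all 27025 genes with a promoter entry. Per window of equal length, 39 of 48 member windows (81.2%) held a core, against 56.9% of 10482 windows of tested genes and 38.6% of all 32851 windows. Member windows were slightly richer in G and C (median 61%) than windows of tested genes (59.6%) and richer than all windows (52.4%). The core did not part the members that rose in the colon from the others: it stood in 10 of 10 matched members that rose and in 20 of 22 that did not. A match describes these letters only.

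Colon lamina propria T cells carried more transcript of 11 of the 34 members tested than spleen T cells, and no member was called lower. With the replicate number as a block, which pairs the samples, 14 members were higher and 2, Hk1 and Ldhb, lower. The 11 were hexokinase 2, aldolase A, Pfkfb4, 3 transporters and 5 genes of the hypoxia response. The enzymes of the later steps of glycolysis, Gapdh, Pgk1, Pgam1, Eno1, Eno3 and Pkm, did not pass the test, nor did lactate dehydrogenases. Vegfa was too low to be tested. The comparison set 4 libraries of each tissue against each other by edgeR's quasi-likelihood test with Benjamini-Hochberg adjustment over all 10976 genes tested. Of these 29.7% passed in either direction, 16.6% higher and 13.1% lower in the colon. The members' 32.4% is therefore close to the share over all genes, and it is the direction and the choice of genes within the set that are described here. The median log2 difference was 0.43 over the 34 members and -0.00 over all genes tested. The members were chosen with earlier results of these data known, so their shared direction is not an independent result. Sums over cells cannot tell fewer expressing cells from less RNA per cell.

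**Figure D1:**
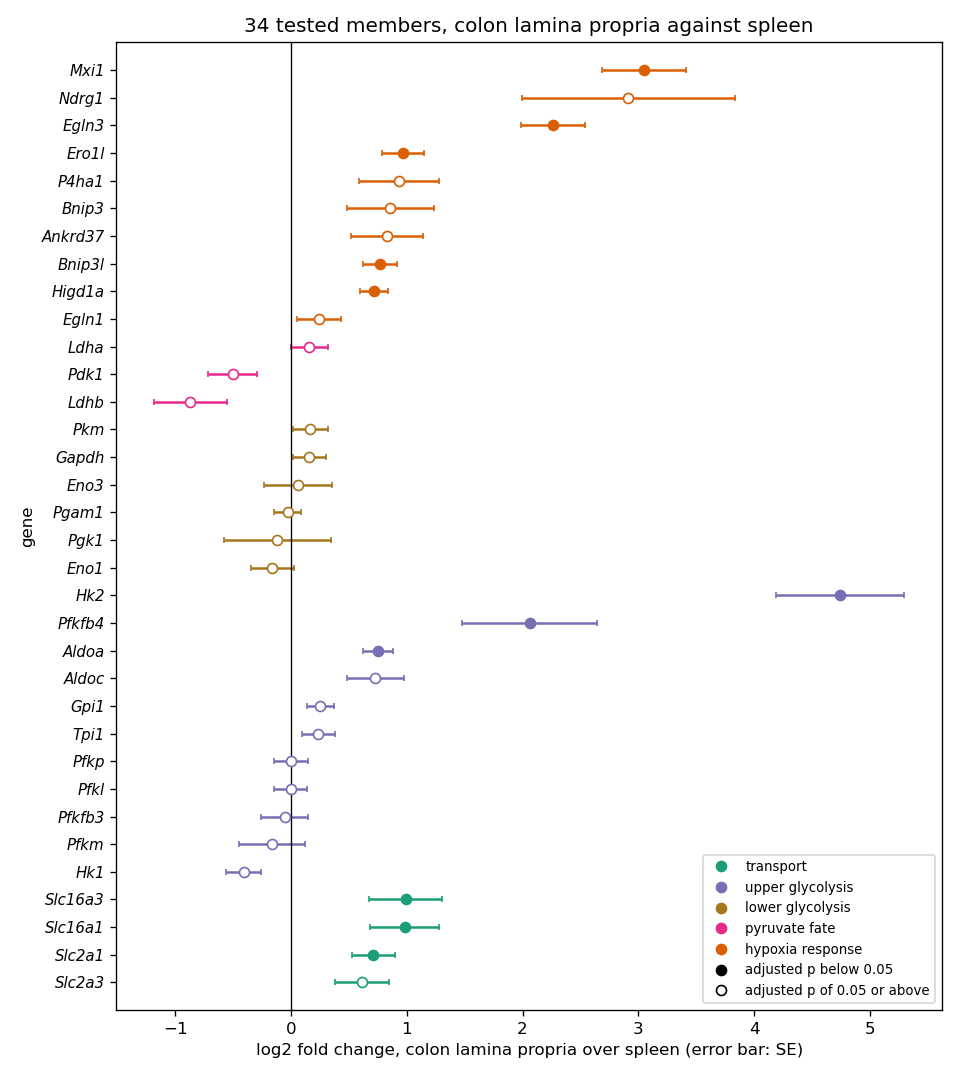
Log2 fold change of each of the 34 tested members in colon lamina propria over spleen (x axis; bar: SE from edgeR, 4 libraries against 4), grouped by role. Filled points passed at an adjusted p of 0.05: 11 members, all to the right of 0, with Hk2 at 4.74, Mxi1 at 3.05 and Egln3 at 2.26, while the later glycolytic enzymes lie between -0.16 and 0.17.

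Scaling bears on direction. With the default TMM factors the median gene did not differ, whereas with library totals and no scaling factors the median gene was 0.25 log2 units lower in the colon. The share of called genes that were higher was then 34.3% in place of 55.9%. Of the 11 members, 8 still passed on library totals, all higher. Slc2a1 (adjusted p = 0.0618), Slc16a1 (0.0633) and Slc16a3 (0.0977) did not, while Hk1, Ldhb and Pdk1 then passed as lower. The small differences of Gapdh, Ldha, Pkm, Egln1 and Tpi1 were above 0 under TMM and below 0 on library totals, so no direction is given for them. Eno3 was also above 0 under TMM. It measured 3.21, 2.37, 3.18 and 2.27 CPM in spleen and 2.70, 1.51, 2.56 and 2.89 CPM in colon (control 1, KO 1, control 2, KO 2). No direction is given for Eno3 either. CPM values below are per library total, and log2 differences are after TMM.

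Among transporters, Slc2a1, the glucose transporter GLUT1, measured 23.6 and 23.7 CPM in spleen replicate 1 (control, KO), 21.3 and 20.5 CPM in spleen replicate 2, 29.7 and 36.3 CPM in colon replicate 1 and 25.1 and 30.3 CPM in colon replicate 2. All 4 colon libraries lay above all 4 spleen libraries, with a log2 difference of 0.71 ± 0.19 (SE; adjusted p = 0.0240). The monocarboxylate transporter MCT1, encoded by Slc16a1, gave 12 to 21.3 CPM in spleen and 14.1 to 33.8 CPM in colon (0.98 ± 0.30, adjusted p = 0.0432). MCT4, the lactate exporter encoded by Slc16a3, gave 6.86 to 8.26 CPM in spleen and 6.63 to 16.6 CPM in colon (0.99 ± 0.31, adjusted p = 0.0462). For both the tissues overlapped: the lowest colon library was control 2 for Slc16a1 and KO 2 for Slc16a3, each within the spleen range or below it. Slc2a3 (GLUT3), at 27.7 to 45.0 CPM in spleen and 33.7 to 63.7 CPM in colon, did not pass (0.61 ± 0.23, adjusted p = 0.0821). Leaving out a single library ended the call of Slc2a1 in 5 of 8 cases, that of Slc16a1 in 6 and that of Slc16a3 in 7.

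Hexokinase adds the phosphate that traps glucose in the cell. Hk2, its inducible form, measured 2.65 and 5.33 CPM in spleen replicate 1 (control, KO) and 2.68 and 1.89 CPM in spleen replicate 2. In colon it measured 87.2 and 71.0 CPM in replicate 1 and 27.7 and 77.2 CPM in replicate 2. Every colon library was above every spleen library, and the lowest of them, control 2, was still over the highest spleen library. The log2 difference was 4.74 ± 0.56 (adjusted p = 0.00205), the largest of the 34 members. Its constitutive counterpart Hk1 stood the other way on CPM, at 61.4, 69.9, 74.5 and 69.5 CPM in spleen and 34.2, 35.0, 53.5 and 53.1 CPM in colon (control 1, KO 1, control 2, KO 2). The tissues did not overlap for Hk1, and the difference of -0.41 ± 0.15 missed the threshold (adjusted p = 0.0695). With the replicate number as a block it passed (-0.42 ± 0.13, adjusted p = 0.0275).

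Phosphofructokinase, the main point of control of the pathway, showed little difference after scaling. Pfkl, Pfkm and Pfkp gave log2 differences of -0.00, -0.16 and -0.00, with standard errors of 0.15, 0.28 and 0.15. On CPM, before scaling, Pfkl was lower in colon without overlap, at 31.0 to 40.2 CPM in spleen and 27.6 to 30.7 CPM in colon. Of the enzymes that set the activator of phosphofructokinase, Pfkfb3 gave -0.06 ± 0.20 and Pfkfb4 rose by 2.06 ± 0.58 (adjusted p = 0.0310). Pfkfb4 was scarce in both tissues: 0, 0.988, 0.696 and 0.758 CPM in spleen and 1.70, 2.64, 1.59 and 2.29 CPM in colon (control 1, KO 1, control 2, KO 2). No UMI was counted in spleen control 1, which allows up to 0.419 CPM there by counting error. Leaving out any of 5 single libraries ended the Pfkfb4 call (adjusted p between 0.0594 and 0.114 without spleen KO 1, spleen KO 2, colon control 1, colon KO 1 or colon KO 2).

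Aldoa, aldolase A, which splits the 6-carbon sugar, measured 462, 468, 457 and 551 CPM in spleen and 612, 583, 791 and 755 CPM in colon (control 1, KO 1, control 2, KO 2). The groups did not overlap, and replicate 2 was the higher pair in the colon. The log2 difference was 0.75 ± 0.13 (adjusted p = 0.00465). Aldoc, a minor form here, gave 2.17 to 3.49 CPM in spleen and 3.02 to 5.47 CPM in colon; it missed the threshold (adjusted p = 0.0554) and passed with the replicate block (0.74 ± 0.25, adjusted p = 0.0447). Gpi1 (0.25 ± 0.12) and Tpi1 (0.23 ± 0.14) did not pass.

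The later enzymes were mostly abundant, and none passed. Gapdh measured 1052 to 1200 CPM in spleen and 954 to 1201 CPM in colon (0.16 ± 0.14, adjusted p = 0.437), and Pkm, pyruvate kinase, 588 to 803 and 498 to 797 CPM (0.17 ± 0.15, adjusted p = 0.426). For both, the colon range covered most of the spleen range. Pgam1, Eno1 and Eno3 gave -0.03 ± 0.12, -0.16 ± 0.18 and 0.06 ± 0.29. Pgk1 varied widely within both tissues, at 26.4 and 41.5 CPM in spleen replicate 1 (control, KO) and 6.76 and 19.0 CPM in replicate 2. In colon it measured 24.3 and 10.3 CPM in replicate 1 and 28.1 and 12.9 CPM in replicate 2. The colon spread lay between control and KO rather than between replicates. Copies of Gapdh, Pgk1, Eno1, Pgam1 and Ldha lie elsewhere in the mouse genome, and the sources used here do not say how reads matching several places were counted. These values are uncertain to that degree.

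Of the genes that act on pyruvate, Ldha, which makes lactate, gave 808 to 943 CPM in spleen and 646 to 1005 CPM in colon (0.16 ± 0.16, adjusted p = 0.482). Ldhb, the form that favours pyruvate, measured 6.56, 13.6, 5.17 and 6.75 CPM in spleen and 3.69, 3.25, 2.73 and 4.58 CPM in colon (control 1, KO 1, control 2, KO 2). The tissues did not overlap, yet -0.87 ± 0.32 did not pass (adjusted p = 0.0698); with the replicate block Ldhb was lower in the colon (-0.84 ± 0.26, adjusted p = 0.0313). Pdk1, which holds pyruvate back from mitochondria and is a classic HIF target, stood at 12.8 to 24.4 CPM in spleen and 8.56 to 12.2 CPM in colon, without overlap (-0.50 ± 0.21, adjusted p = 0.107).

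All 10 tested genes of the hypoxia response had a positive log2 difference, and 5 of them passed. Over all genes tested, 49.9% had a positive difference and 16.6% passed as higher. The genes were chosen with earlier results of these data known. Egln1, the prolyl hydroxylase PHD2, is among the 10 at 0.24 ± 0.19, and its sign turned on library totals. Mxi1, a repressor that competes with MYC for its partner MAX, measured 6.70, 7.51, 13.0 and 11.4 CPM in spleen and 73.4, 92.4, 53.5 and 44.5 CPM in colon (control 1, KO 1, control 2, KO 2). The gap between the tissues was wide in both replicates, at 3.05 ± 0.36 (adjusted p = 0.00161). Egln3, the prolyl hydroxylase PHD3, both a sensor of oxygen and a target of HIF, measured 5.02, 2.37, 8.45 and 5.53 CPM in spleen and 18.0, 28.3, 17.2 and 22.4 CPM in colon, again without overlap (2.26 ± 0.28, adjusted p = 0.00119). Ero1l, an oxidase that forms disulfides in the endoplasmic reticulum, measured 37.5, 48.0, 40.8 and 37.1 CPM in spleen and 72.9, 69.4, 59.7 and 62.6 CPM in colon (0.97 ± 0.18, adjusted p = 0.00621).

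Bnip3l, a receptor for the removal of mitochondria, ranged from 130 to 189 CPM in spleen and from 201 to 231 CPM in colon (0.77 ± 0.14, adjusted p = 0.00643). Higd1a, a small mitochondrial protein, ranged from 175 to 232 CPM and from 242 to 285 CPM (0.72 ± 0.12, adjusted p = 0.00395). Neither overlapped between tissues. Ndrg1, a stress-induced gene, had the third largest difference of the members and missed the threshold (2.91 ± 0.92, adjusted p = 0.0623). Its colon libraries parted by replicate, with 30.5 and 29.2 CPM in replicate 1 and 4.23 and 8.92 CPM in replicate 2, against 3.07 and 6.72, and 1.49 and 2.05 CPM in spleen (control, KO each). With the replicate block Ndrg1 passed (2.61 ± 0.30, adjusted p = 0.000501), and so did P4ha1, a collagen prolyl hydroxylase subunit (0.88 ± 0.17, adjusted p = 0.00377). Bnip3 and Ankrd37 (0.86 ± 0.37 and 0.83 ± 0.31) did not pass in either fit. Vegfa gave 0 to 0.198 CPM in spleen and 0.121 to 1.06 CPM in colon, at most 14 UMIs in a library; the spleen libraries without a UMI allow 0.227 to 0.419 CPM.

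**Figure D2:**
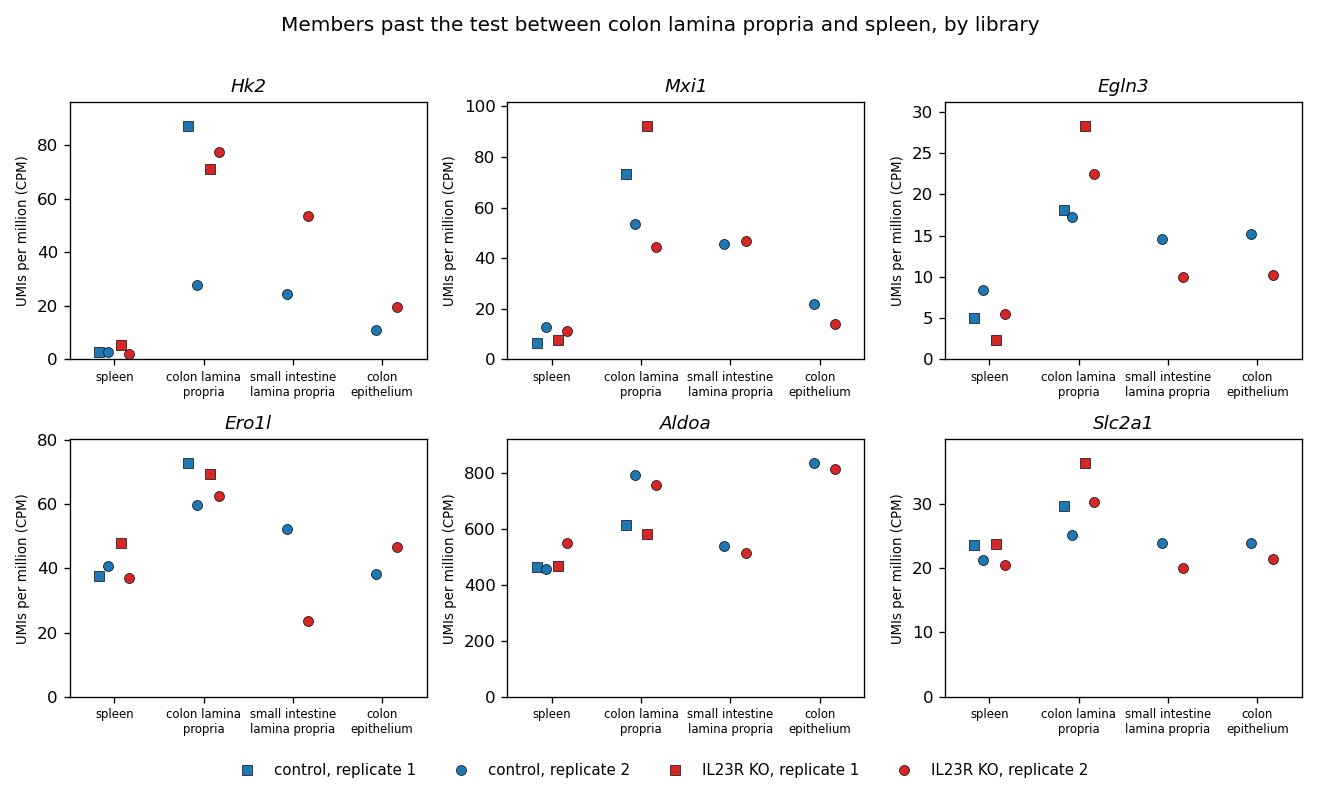
CPM of 6 members that passed between colon lamina propria and spleen, 1 point per library by tissue (x axis), genotype (colour) and replicate (shape). Hk2 lies at 1.89 to 5.33 CPM in spleen and 27.7 to 87.2 CPM in colon lamina propria, and the epithelial libraries lie between these tissues for Hk2 and Mxi1.

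Libraries of the 2 replicates were also fitted apart, with genotype as a term, because the replicate number equals the batch in the deposited cell table. Replicate 1 alone called 17 members and replicate 2 alone 7, of which 11 and 5 were among the 11 of the pooled fit; Hk2, Mxi1, Egln3, Aldoa and Ero1l passed in each. The 16 members that passed with the replicate as a block included all 11. The count fell to 7 without colon control 1 or without colon KO 1. The same 5 genes passed under each of the 19 alternatives tried for this comparison.

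Other measures moved with tissue. Genes of dissociation and heat shock, such as Nr4a1, Dusp1, Socs3 and Junb, were higher in the colon for 16 of 24, and all 24 had a positive difference (median 1.98). Their summed level was 5941 to 8090 CPM in spleen and 10834 to 31853 CPM in colon lamina propria. Epithelial markers were higher in the colon for 4 of 6 tested (summed 15.1 to 158 CPM against 3.87 to 8.49 CPM in spleen) and stromal and endothelial markers for 3 of 3 (39.8 to 56.6 against 24.7 to 38.2 CPM). Of 2 neutrophil markers 1 was lower. Of 8 macrophage, 9 ILC and NK cell, and 4 erythroid markers tested 0 passed. Cycling cells, defined below, made up 6.54% to 15.7% of spleen cells and 0.362% to 5.45% of colon cells. When cells with any cycling UMI were left out, all 11 members still passed, with Ldhb and Pdk1 lower besides. The part of the dissociation genes and of the epithelial and stromal markers in the member differences was not tested. The dissociation list is named for handling, and why its genes were higher in the colon was not tested either.

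The rest of the pathway was read from lists of other genes. Of 11 tested regulators of HIF, 4 rose in the colon: Hif1a, the oxygen-regulated subunit itself (60.8 ± 10.7 CPM in spleen, 320 ± 23.8 CPM in colon, mean ± SD, n = 4 each; log2 2.67 ± 0.18, adjusted p = 8.77e-05), its inhibitor Hif1an (1.48 ± 0.17), its partner Arnt (0.95 ± 0.25) and Cited2 (0.55 ± 0.11), which competes with HIF for a coactivator. Of 25 other HIF targets, 7 rose and 2 fell. Hilpda, a lipid droplet protein, measured 19.3 ± 4.87 and 255 ± 68.7 CPM (4.03 ± 0.29), and the transcription factors Bhlhe40 (2.81 ± 0.22) and Rora (2.24 ± 0.16) also rose. Ddit4, an inhibitor of mTORC1, fell by 1.22 ± 0.14, from 269 ± 65.5 to 94.4 ± 10.3 CPM. Growth genes under MYC and mTORC1 rose for 8 of 17 and fell for 1: Odc1, the first enzyme of polyamine synthesis (4.56 ± 0.47), the amino acid transporter subunits Slc3a2 (2.38 ± 0.26) and Slc7a5 (1.65 ± 0.28) and the transferrin receptor Tfrc (2.13 ± 0.29) had the smallest p-values. The pentose phosphate pathway, which branches from glycolysis to make NADPH, had 1 of 10 genes changed, Pgd, which was lower (-0.47 ± 0.14). Entry of pyruvate into mitochondria had 1 of 10, Pdp1, which was higher (0.75 ± 0.24), and 0 of 7 other isoenzymes of glycolysis passed.

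**Figure D3:**
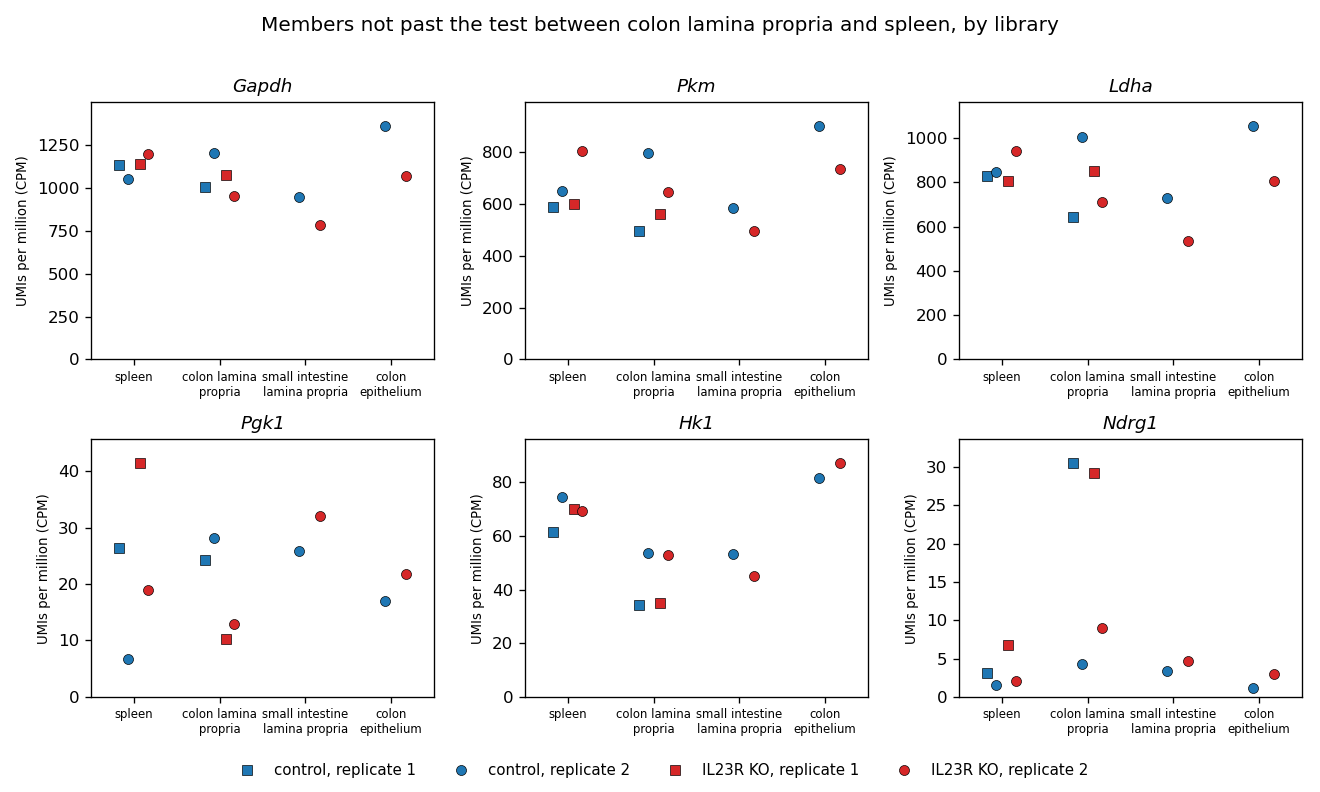
CPM of 6 members that did not pass between colon lamina propria and spleen, drawn as in the plot of members that passed. Gapdh, Pkm and Ldha overlap between the tissues, Hk1 lies lower in colon lamina propria than in spleen without overlap, and the 2 replicate 1 colon libraries alone hold the high Ndrg1 values of 30.5 and 29.2 CPM.

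Small intestinal lamina propria was compared with colon lamina propria within replicate 2, over the 8 libraries of that replicate, with genotype as a term. No member passed, and of 11155 genes 1 did (0.00896%), with 982 at an unadjusted p under 0.05. Of the 34 members 30 had a negative difference, with a median of -0.35 against 0.00 over all genes. The smallest p-values belonged to Aldoa, at 538 and 512 CPM in small intestine and 791 and 755 CPM in colon (control, KO; -0.59 ± 0.13, adjusted p = 0.219), to Tpi1, at 60.6 and 38.4 against 120 and 72.1 CPM (-0.96 ± 0.22, adjusted p = 0.240), and to Pgam1, at 70.2 and 73.0 against 112 and 93.3 CPM (-0.55 ± 0.15, adjusted p = 0.300). The tissues, with 2 libraries each, did not overlap for any of these 3 genes, which were picked by p-value. The share of all genes without overlap was not counted. DESeq2 called 92 genes and 2 members here, Aldoa and Tpi1, and edgeR called the same 2 without either spleen library of the fit (adjusted p from 0.0171 to 0.0475). Mxi1 and Hk2, called between colon and spleen, had smaller differences relative to their errors: Mxi1 measured 45.5 and 46.8 CPM in small intestine against 53.5 and 44.5 CPM (-0.13 ± 0.18), and Hk2 24.5 and 53.6 against 27.7 and 77.2 CPM (-0.42 ± 0.37). The dissociation list summed to 12525 to 27502 CPM in the small intestine.

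T cells from the colon epithelium carried less Mxi1, Ndrg1 and Hk2 than those of the colon lamina propria, and more Hk1. These were 4 of 34 members (11.8%), close to the 12.2% of all 11155 genes that passed. Mxi1 measured 22.0 and 14.0 CPM in epithelium and 53.5 and 44.5 CPM in lamina propria (control, KO; -1.64 ± 0.18, adjusted p = 0.00148). Ndrg1 measured 1.12 and 2.93 against 4.23 and 8.92 CPM (-1.91 ± 0.35, adjusted p = 0.0114), and Hk2 11.2 and 19.4 against 27.7 and 77.2 CPM (-1.88 ± 0.37, adjusted p = 0.0311). Hk1 measured 81.8 and 87.3 against 53.5 and 53.1 CPM (0.48 ± 0.13, adjusted p = 0.0424). In each case both epithelial libraries lay on 1 side of both lamina propria libraries. The share of all genes that parted in this way was not counted.

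The epithelial comparison rests on few libraries. Mxi1 passed under each of 16 alternatives. It was the 1 member to pass without colon lamina propria KO 2, without either epithelial library, and when all cells were used without the CD3 gate. The calls of Hk2 (adjusted p = 0.0618 and 0.0640) and Hk1 (0.0584 and 0.0551) also ended without the small intestinal control or KO library, and that of Hk1 without colon control 2 (0.264). Leaving out either spleen library raised the count to 7. The split of called genes moved with scaling, from 37.9% higher under TMM to 66.2% on library totals, where the median gene stood at 0.20. All 4 members kept their direction and their call on library totals. Epithelial markers differed between the epithelial libraries as given above, and their part was not tested. The comparisons of both gut sites share the colon lamina propria libraries, and those libraries also enter the comparison with spleen.

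Of all genes tested between epithelium and colon lamina propria, 7.57% passed as lower in the epithelium and 4.63% as higher. Among other pathway genes in the epithelium, 4 of 11 regulators of HIF fell, with Hif1a at 102 ± 7.44 against 302 ± 19.4 CPM (mean ± SD, n = 2 each; -1.74 ± 0.20, adjusted p = 0.00176), followed by Cited2, Epas1 and Hif1an. Of 25 other HIF targets 5 fell and 1 rose: Rora (-1.53 ± 0.13), Bhlhe40 (-2.26 ± 0.30) and Slc2a6, a further glucose transporter (-2.36 ± 0.48), were lower, and Ddit4 was higher (0.82 ± 0.17). Growth genes fell for 5 of 17, led by Odc1 (75.5 against 573 CPM; -3.08 ± 0.18). The dissociation list summed to 9800 to 14832 CPM in the epithelium, with 2 of 23 genes lower. Macrophage markers were lower in the epithelium for 4 of 6 tested (summed 5.45 to 12.4 CPM, against 13.1 to 34.7 CPM over the 4 colon lamina propria libraries), and stromal and endothelial markers for 3 of 3 (26.9 to 35.0 against 39.8 to 56.6 CPM). Of 7 T cell markers 2 were lower, although their sum was 6829 to 7132 CPM in the epithelium and 4928 to 6544 CPM in the lamina propria. Of 14 epithelial markers tested 0 passed, and 1 of 10 ILC and NK cell markers was lower. The part of these markers was not tested.

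No member differed between Il23r genotypes past the threshold in the 4 tests as first set, and 1 member, Pgk1, passed in 2 of them with no filter on low counts. In colon lamina propria, in spleen, in the difference between those tissues and over all 6 pairs of libraries, 0 of 34 members passed, where 0% of all genes passed. edgeR gave 123, 128 and 114 genes of 10976 at an unadjusted p under 0.05 in the first 3 and 525 of 11305 over all pairs. The first 3 counts lie well under the share of 0.05 that chance alone gives, so those tests were conservative. Replicate was not a term in them. A lack of calls there is weak evidence of no difference. DESeq2 also called 0 members, and 0, 3, 2 and 3 genes in these 4 tests. Medians over the members were 0.00 in colon, 0.05 in spleen and -0.04 over all pairs.

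In colon lamina propria the smallest p-values belonged to Eno1, Pgk1 and Egln3, each with an adjusted p of 1. Eno1, enolase, measured 419 and 615 CPM in control against 299 and 438 CPM in KO (replicates 1, 2; -0.45 ± 0.26). Pgk1, a step of ATP formation, measured 24.3 and 28.1 CPM in control against 10.3 and 12.9 CPM in KO (-1.14 ± 0.66). Egln3 measured 18.0 and 17.2 CPM in control against 28.3 and 22.4 CPM in KO (0.57 ± 0.36). Genotypes overlapped for Eno1 and not for Pgk1 or Egln3. Within replicates Eno1 was lower in KO in both pairs, with log2 ratios of -0.49 and -0.49, and replicate 2 was the higher pair. With the replicate block Eno1 gave -0.45 ± 0.25, still with an adjusted p of 1 by edgeR. With no filter on low counts Pgk1 passed (-1.12 ± 0.30, adjusted p = 0.0340), with 83 genes in all. Genes of dissociation and heat shock were higher in colon KO for 23 of 24 without any passing (median 0.62).

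In spleen the smallest p-values belonged to Aldoc (-0.65 ± 0.36), Pdk1 (-0.53 ± 0.30) and Egln3 (-0.72 ± 0.40), all with an adjusted p of 1. Pdk1 measured 20.0 and 24.4 CPM in control against 12.8 and 18.0 CPM in KO (replicates 1, 2), without overlap. The genotype difference of Egln3 had opposite signs in the tissues, and edgeR's test of that difference gave 1.29 ± 0.54 (adjusted p = 1). That of Pgk1 gave -1.97 ± 0.93 and that of Eno1 -0.70 ± 0.37, neither of which passed; with no filter Pgk1 passed there too.

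Over 6 pairs of control and KO libraries, Gpi1, glucose-6-phosphate isomerase, was the 1 member that was lower in KO in 6 of 6 pairs, and no member was higher in 6 of 6. Its pair ratios ran from -0.38 to -0.02 on the log2 scale, at 315, 330, 316, 371, 315 and 358 CPM in control against 312, 297, 287, 285, 275 and 327 CPM in KO (spleen 1, spleen 2, colon lamina propria 1, colon lamina propria 2, small intestine, colon epithelium). The difference of -0.17 ± 0.08 did not pass (adjusted p = 1, unadjusted p = 0.0450), and the gene was picked from 35 by this pattern. The share of all genes with 1 sign in 6 of 6 pairs was not counted. Ldhb (0.54 ± 0.24) and Tpi1 (-0.25 ± 0.13) had the next smallest p-values. The fit had tissue and genotype as terms and did not pair the libraries. With each pair as a block, edgeR gave -0.17 ± 0.07 for Gpi1 (adjusted p = 0.580). The smallest adjusted p of a member was then 0.562, for Slc16a1 (0.40 ± 0.13) and Ndrg1 (0.66 ± 0.20). Both were higher in KO in 5 of 6 pairs, and no member passed. Hk2 was higher in KO in 4 of 6 pairs, with ratios from -0.50 to 1.48, the widest of them in colon replicate 2. In that pair Hspa1a and Dnajb1, picked after their values were seen, measured 37.6 and 91.1 CPM in control against 4427 and 1832 CPM in KO. Hk2 was lower in KO in 2 pairs. There the 2 genes measured 857 and 490 against 936 and 462 CPM (colon replicate 1) and 1.89 and 84.9 against 66.9 and 106 CPM (spleen replicate 2). In spleen replicate 1, where Hk2 was higher in KO, they measured 81.9 and 114 against 262 and 122 CPM. Over all pairs 21 of 24 genes of dissociation and heat shock had a positive difference in KO (median 0.55) and 0 passed. Their part in the Hk2 ratios was not tested.

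**Figure D4:**
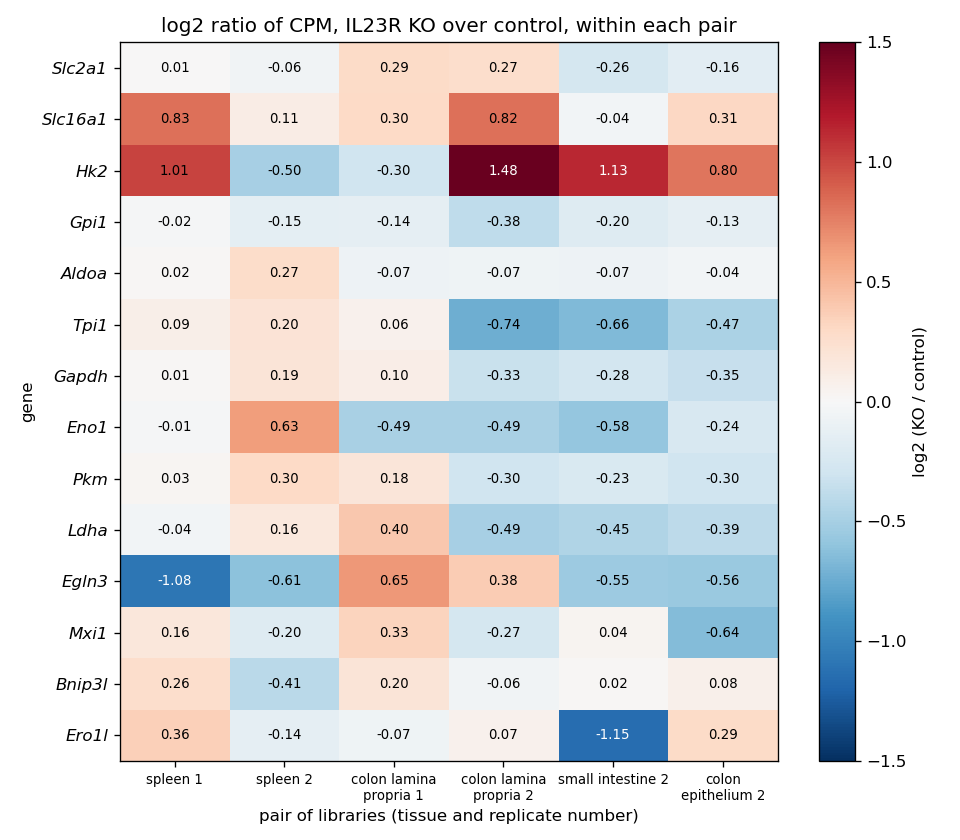
Log2 ratio of CPM in KO over control for 14 members (rows) within each of 6 pairs of libraries (columns) (blue lower, red higher in KO). Gpi1 is the 1 row that is below 0 in all 6 pairs, and Hk2 runs from -0.50 to 1.48. The share of all genes below 0 in all 6 pairs was not counted.

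Small intestine and colon epithelium had 1 library per genotype, so their pairs carry no test, and the intervals below are exact Poisson intervals at 95% that cover counting error only. In small intestine Hk2 measured 24.5 CPM (20.8 to 28.8) in control and 53.6 CPM (43.7 to 65.1) in KO. Tpi1 measured 60.6 CPM (54.6 to 67.1) and 38.4 CPM (30.1 to 48.2), and Ero1l 52.3 CPM (46.7 to 58.3) and 23.6 CPM (17.2 to 31.6). The KO library is the one of which the CD3 gate kept 50.6% of cells, and its 1902990 UMIs were the fewest. In colon epithelium Slc16a3 measured 28.6 CPM (25.6 to 31.9) in control and 11.7 CPM (9.67 to 14.1) in KO, and Hk2 11.2 CPM (9.31 to 13.2) and 19.4 CPM (16.7 to 22.4). None of these intervals overlapped within its pair, and this was not particular to the genes named. For Gapdh the 95% interval of the log2 ratio of KO over control was -0.361 to -0.195 in small intestine. In colon epithelium it was -0.384 to -0.312. The share of members that parted in this way was not counted. Other measures differed in the same pairs. Epithelial markers summed to 366 CPM in the small intestinal control and 14.7 CPM in its KO, the reverse of the epithelial pair. The heat shock genes Hspa1a and Dnajb1, picked after their values were seen, measured 174 and 119 CPM in the small intestinal control against 2994 and 1392 CPM in KO. In the epithelium they measured 28.9 and 89.7 CPM in control against 1989 and 477 CPM in KO. The part of these measures in the Hk2, Tpi1, Ero1l and Slc16a3 values was not tested.

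The members also differed between cycling and other cells of the same libraries. Every cell was thinned to 1000 UMIs, since cycling cells were deeper (library medians of 5460 to 21043 UMIs against 2302.5 to 5208), and 272 shallower cells were left out. Cells with at least 3 UMIs over 20 cell cycle genes such as Mki67 and Top2a were called cycling (1657 cells), those with 0 formed the other class (24790), and 2904 with 1 or 2 were set aside. This class is a range cut from a score: 463 cells had 2 such UMIs and 267 had 3. Both classes were compared within each of the 12 libraries, and over 7711 genes 43.7% passed, 13.3% higher and 30.4% lower in cycling cells. Of 27 members tested 12 passed (44.4%), 5 higher and 7 lower, which is near the share over all genes.

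Cycling cells were higher for 3 of the 5 tested enzymes of the later steps of glycolysis, for Tpi1 just before them and for the lactate exporter gene Slc16a3. Gapdh measured 1400 to 1965 CPM (median 1643) in cycling cells and 695 to 1085 CPM (median 861) in the others, higher in 12 of 12 libraries and without overlap (log2 0.54 ± 0.10, adjusted p = 1.32e-06). Tpi1, triosephosphate isomerase, measured 100 to 231 CPM (median 172) against 29.9 to 109 CPM (median 57.6), also in 12 of 12 libraries (0.96 ± 0.14, adjusted p = 3.29e-11). Pkm measured 600 to 1151 CPM (median 938) against 422 to 784 CPM (median 566) in 12 of 12 (0.28 ± 0.10, adjusted p = 0.0204). Pgam1 was higher in 10 of 12 (0.51 ± 0.13) and Slc16a3 in 7 of 12 (0.99 ± 0.30). The Slc16a3 call ended without the epithelial control library (adjusted p = 0.128), and that of Pkm with no filter on low counts (0.159).

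Lower in cycling cells were 2 of 8 tested genes of the hypoxia response, 4 genes of transport and the first steps, and Pdk1. Over all genes tested, 30.4% were lower, so the hypoxia response genes do not stand out by this count. Bnip3l measured 0 to 215 CPM (median 125) in cycling cells and 148 to 265 CPM (median 222) in the others, and it was lower in all 12 libraries (-1.02 ± 0.13, adjusted p = 1.86e-13). The libraries at 0 held 5 and 6 cycling cells, which allow up to 600 and 500 CPM. Aldoa (-0.60 ± 0.11), Gpi1 (-0.56 ± 0.12) and Pdk1 (-1.63 ± 0.36) were lower as well, in 9, 10 and 10 of 12 libraries. Higd1a (-0.44 ± 0.12), Hk2 (-1.31 ± 0.39) and Slc2a3 (-0.69 ± 0.21) passed under TMM and neither on library totals nor by DESeq2, which also lost Pdk1. Higd1a also missed the threshold without colon KO 2 (adjusted p = 0.0629) and Slc2a3 without the epithelial control (0.101). Aldoa, Bnip3l, Hk2 and Higd1a were higher in the colon, where fewer cells cycled, and they passed there too among cells without a cycling UMI.

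This comparison leans on its scaling. The median gene stood at -0.25 under TMM, at -0.14 with DESeq2's size factors and at 0.01 on library totals, and the share of called genes that were higher was 30.4%, 40.5% and 57.3%. No member that passed changed sign between them. On library totals Gapdh gave 0.91 ± 0.07, Tpi1 1.23 ± 0.13, Pkm 0.60 ± 0.08, Bnip3l -0.74 ± 0.12 and Gpi1 -0.27 ± 0.10, and Eno1 and Ldha then passed as higher (0.46 ± 0.08 and 0.26 ± 0.08). Without the 3 libraries of under 50 cycling cells Hk2 no longer passed (adjusted p = 0.0608). Among other pathway genes, 19 of 23 of dissociation and heat shock were lower in cycling cells, and all 7 T cell markers were lower. Of 17 other HIF targets 3 were higher, led by the membrane-binding protein Anxa2 (0.72 ± 0.10, 12 of 12 libraries), and 7 were lower, among them Ddit4 (-0.82 ± 0.14), Rora (-0.69 ± 0.13) and Bhlhe40 (-0.58 ± 0.12).

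**Figure D5:**
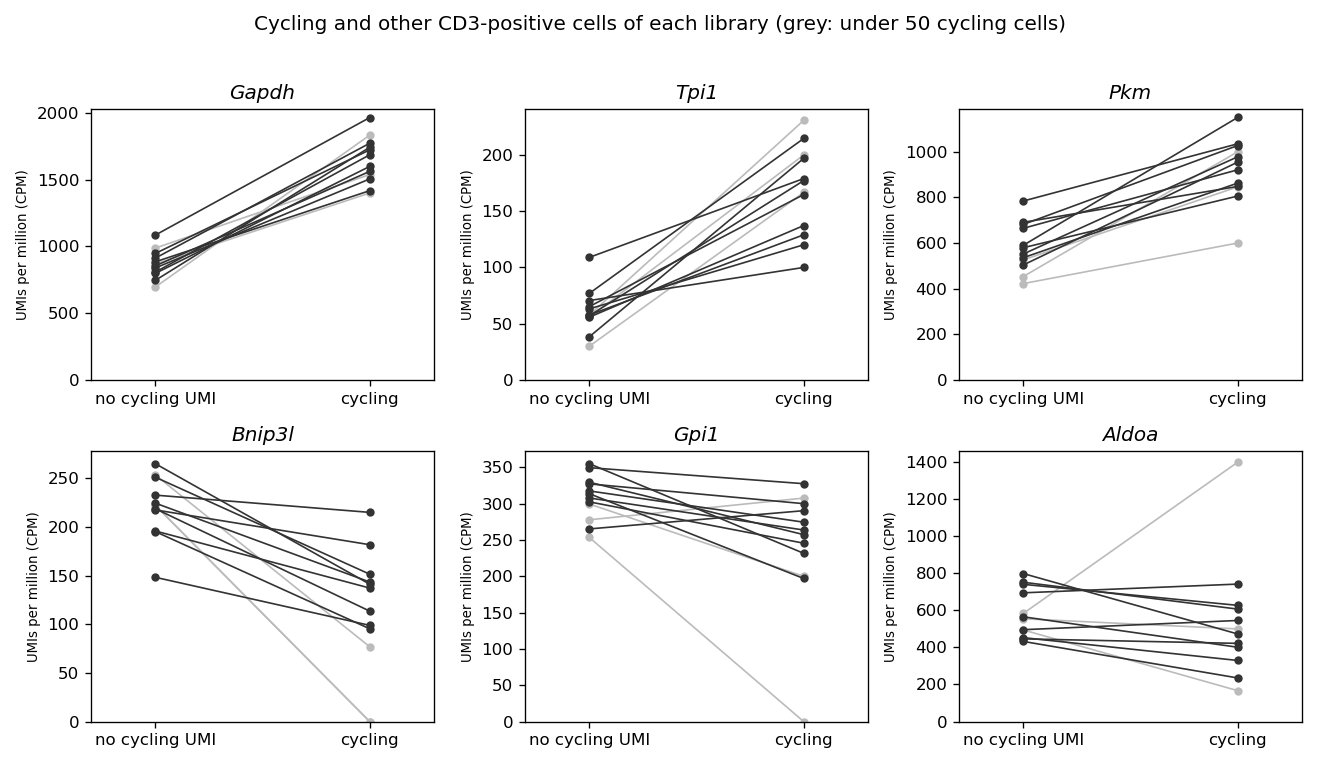
CPM of 6 members in cells without a cycling UMI and in cycling cells, both thinned to 1000 UMIs per cell; each line joins the 2 classes of 1 library, and grey lines are the 3 libraries with under 50 cycling cells. Gapdh, Tpi1 and Pkm rise in 12 of 12 libraries and Bnip3l falls in 12 of 12, while Aldoa is lower in 9 of 12.

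Interferon gamma, the Th1 cytokine, has been linked to glycolysis in T cells through the second role of GAPDH as an RNA-binding protein. Cells with an Ifng UMI at 1000 UMIs numbered 3624 (12.3%), against 25727 without; they made up 3.12% to 5.72% of spleen cells and 11.8% to 21.7% of cells from gut libraries. Of 1229 cells with no CD3 UMI, 35 (2.85%) carried one, at median depths of 2960 UMIs there and 2884 UMIs in CD3-positive cells. Within libraries, 2 of 27 members tested were higher in the cells with an Ifng UMI and none lower, where 3.9% of 7736 genes passed.

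Slc2a3, the glucose transporter GLUT3, measured 49.7 to 83.2 CPM (median 60.4) in cells with an Ifng UMI and 29.6 to 63.4 CPM (median 41.0) in those without. It was higher in 12 of 12 libraries (0.48 ± 0.12, adjusted p = 0.00260). Hk2 measured 0 to 88.7 CPM (median 26.6) against 1.85 to 87.4 CPM (median 14.5), and it was higher in 8 of 12 libraries (0.52 ± 0.15, adjusted p = 0.0163). The Hk2 call ended by DESeq2 (adjusted p = 0.0531), with no filter (0.0771) and without colon KO 2 (0.0613), epithelial control (0.177) or epithelial KO (0.100). With cells of at least 2 Ifng UMIs the call of Slc2a3 ended (0.268) and that of Hk2 held.

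Gapdh itself, at 679 to 1273 CPM in cells with an Ifng UMI and 679 to 1146 CPM in those without, did not pass (-0.00 ± 0.06, adjusted p = 0.999), nor did Ldha (-0.04 ± 0.06), Pkm or Eno1. Higd1a had the next smallest p-value (-0.16 ± 0.07, adjusted p = 0.263). Among other HIF targets Bhlhe40 was higher in 12 of 12 libraries (0.37 ± 0.06, adjusted p = 2.05e-07) and Anxa2 in 10 of 12 (0.27 ± 0.07). Of the list named for dissociation and heat shock, 12 of 24 genes were higher in cells with an Ifng UMI, led by Dusp1 (0.62 ± 0.06). Both classes came from the same libraries, so the list's name does not say why these genes differed. Their part in the Slc2a3 and Hk2 differences was not tested.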

How the data were processed

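The deposited matrix holds UMI counts per gene and cell for 12 droplet libraries (10x Genomics 3′ kit, per the labels' protocols). Cell Ranger 2.0.2 and mm10 are named in the submitters' processing notes, with no role given. Cells took their library from the deposited cell table, whose other 2 columns were not used. Groups follow the sample labels. No doublet caller was run.

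Counts of CD3-positive cells were summed per library and tested with edgeR 4.0.16 in R 4.3.3 (quasi-likelihood test with robust fit, low-count filter, TMM factors, Benjamini-Hochberg threshold of 0.05). Every adjusted p in the report is from that test unless DESeq2 (1.42.0) is named. Colon against spleen, and genotype within each, used 8 libraries and 4 group means with 1 shared spread. The gut sites used the 8 libraries of replicate 2 with tissue and genotype as terms, and genotype over all tissues used 12 libraries. Cell classes were summed after thinning to 1000 UMIs per cell and compared with the library as a block. Differences are log2 fold changes ± SE. Intervals and upper limits (3 counts) cover counting error only. Per-library totals of 1902990 to 13248318 UMIs set the precision. Fits were tested on simulated data.

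Same-numbered libraries deviated together from their group means (correlations of 0.24 to 0.463 over all 6 pairs of groups), and the replicate number equals the deposited batch number in 32763 of 32763 cells, so the numbers pair the samples. Members past the threshold, or else the 3 of smallest p, are given in full, and at most 4 genes of each pathway list are named. In no comparison was the share of all genes without overlap between groups counted. The members and the gene lists were chosen with earlier results of these data known. Alternatives were another normalization, no filter, DESeq2, other gates, thinning, a replicate block and leaving out each library. Library totals, cells without a cycling UMI, and the omission of libraries with under 50 cycling cells were added after seeing the data.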

Additional observations from a re-analysis of the deposited data

Results flagged for a closer look

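In 4 of 70 groups of 4 libraries, 1 library stood apart from the other 3 by more than Dixon's 95% critical value, a rate that chance alone gives in about 1 of 20 groups. Aldoa measured 551 CPM in spleen KO 2 against 457 to 468 CPM in the other spleen libraries. Eno1 measured 419 CPM in spleen control 2 against 612 to 650 CPM. Tpi1 measured 120.1 CPM in colon lamina propria control 2 against 72.1 to 79.0 CPM in the other colon libraries. Vegfa measured 0.198 CPM in spleen KO 1, a single UMI, against 0 in the other spleen libraries.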

How the results depend on the processing

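In colon lamina propria against spleen the main test called 3262 genes and 11 members. No filter on low counts gave 17 members, replicate 1 alone 17 and replicate 2 alone 7 with 1573 genes. Leaving out 1 library gave 7 to 13 members and 1793 to 3596 genes. Fewer genes by over 1.5 times passed without spleen control 1 (1793), colon KO 1 (1915), spleen control 2 (1964) or spleen KO 2 (2071). With the replicate number as a block, 4383 genes and 16 members passed in colon against spleen, and 0 genes and 0 members in each test of genotype, so that the pairing changed no other call. On library totals the share of calls that were higher was 34.3%, against 55.9% with TMM.

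For small intestine (1 gene, 0 members), no filter gave 7 genes, DESeq2 92 and 2 members, a gate of 1 CD3 UMI 4, thinning 41, and cells without a cycling UMI 24 with 1 member. Leaving out 1 library gave 1 to 55 genes and 0 to 2 members. For colon epithelium (1360 genes, 4 members), all cells gave 733 genes and 1 member, cells without a cycling UMI gave 7 members, and leaving out 1 library gave 224 to 1933 genes and 1 to 7 members.

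For genotype, no filter gave 83 genes and 1 member in colon, 70 genes in spleen, 68 genes and 1 member for the difference between them, and 6 over all pairs. DESeq2 gave 3, 2 and 3 genes in the last 3, and leaving out 1 library 0 to 1 gene in the first 3. For cycling cells (3367 genes, 12 members), DESeq2 gave 2083 genes, and unthinned UMIs gave 5630 genes and 23 members. For cells with an Ifng UMI (302 genes, 2 members), no filter, DESeq2 and a minimum of 2 Ifng UMIs each left 1 member, unthinned UMIs gave 490 genes, and leaving out 1 library gave 1 to 2 members. The cause of these shifts was not tested. No member that passed a main test changed sign under an alternative tried for it. Genes under about 1 CPM rest on few UMIs and were read at this depth as scarce only.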
